A study of Homo sapiens with 18 samples.

Results

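The genes of cholesterol and fatty acid synthesis were followed through CAGE-seq of 3 bladder cancer cell lines. They comprise 33 members of the 16575 genes in the deposited table, chosen by symbol from the enzymes of both pathways and the proteins that sense sterol, and all 33 passed the filter on low values (13022 of 16575 genes did). CAGE-seq sequences the capped 5′ ends of RNA, and the deposited unit is CPM, the tags of a gene scaled to the library's total. The established bladder carcinoma lines CAL-29, HT-1376 and RT-112 each went through a first lentiviral transduction with WWOX or its control and a second one with AP-2α, AP-2γ or its control. The 6 variants of each line are named by 2 letters, the first being W for WWOX or K for its control and the second A for AP-2α, C for AP-2γ or K for control. All of them (KK, WK, KA, WA, KC and WC), KK included, carry both kinds of vector and went through both antibiotic selections. Every variant had 1 library per line, hence n = 3 for a variant, with the lines as replicates. WWOX is a tumor suppressor with WW domains that binds other proteins, whereas AP-2α (TFAP2A) and AP-2γ (TFAP2C) are transcription factors.

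Cholesterol is built from acetyl-CoA by way of mevalonate, squalene and lanosterol, and fatty acids from the same acetyl-CoA by carboxylation, chain building, elongation and desaturation. Both routes are known to be driven by the SREBP transcription factors (SREBF1 and SREBF2), which are held in the endoplasmic reticulum by SCAP and the INSIG proteins when sterol is plentiful and released when it is scarce. The enzymes therefore tend to be transcribed as a group, and epithelial tumors are known for high fatty acid synthase and stearoyl-CoA desaturase.

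The libraries held 13357102 to 17958572 recovered reads on genes, and 3 reads, the limit that a count of 0 allows, were worth 0.158 to 0.213 CPM; these limits cover counting error only. All 12 epithelial and urothelial markers looked at exceeded 5 CPM in some library of RT-112 and of CAL-29, and 11 did in HT-1376, where UPK2 did not. The library labelled CAL-29 KC stood apart: its median correlation across genes was 0.940 with the HT-1376 libraries and 0.741 with those of CAL-29. The fits with a term for the cell line used the other 17 libraries, while the contrasts with KK over the lines include it, and values that rest on it are also given without it. The WWOX gene had 154.92 CPM in CAL-29 WK against 63.68 in KK, while in RT-112 WK and KK held 22.33 and 26.04 CPM and in HT-1376 18.58 and 22.36 CPM. TFAP2C was higher in every library labelled KC or WC than in its control (1.35 to 4.55 times), and TFAP2A was 1.41 to 2.60 times its control in the libraries labelled KA and in CAL-29 WA. In HT-1376 WA, TFAP2A went against the label at 0.909 times WK. In RT-112 WA, TFAP2A was above WK (25.32 against 20.31 CPM), but TFAP2C, which the label does not name, was 179.87 against 56.2. Tags from a vector need not be counted at the native gene, so none of these values is a full check of a transduction. For that check the paper reports Western blots of WWOX and the AP-2 factors. Results that rest on the WA libraries of RT-112 and HT-1376 are also given without them.

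A promoter of 300 bases (250 before to 50 after the start of the gene) was found in RefSeq on GRCh38.p14 for 29 of the 33 members. Among 5 motifs searched on both strands, the NF-Y element CCAAT was present in 18 of 29 member promoters (62.1%), against 37.4% of the 10033 promoters of genes past the filter. The GC-box GGGCGG stood in 27 of 29 (93.1%, against 71.2%), the E-box CACGTG in 4 (13.8%, against 10.4%) and the AP-2 letters GCCNNNGGC in 8 (27.6%, against 32.8%). The sterol element letters TCACNCCAC stood in 1 member promoter, that of SREBF2 (3.45%, against 1.14%). A CCAAT match can lie within an AP-2 match, as it did in the promoters of MSMO1 and SCD. A match is a description of letters only. Sequences are printed 5′ to 3′ on the strand of the gene, with CCAAT (or ATTGG, its reverse) and TCACCCCAC in capitals. The promoters of DHCR7, FADS1 and MSMO1 are shown, and that of SREBF2 for its sterol element. They lie at chr11:71448344-71448643 (minus strand) for DHCR7, chr11:61816954-61817253 (minus strand) for FADS1, chr4:165327419-165327718 (plus strand) for MSMO1 and chr22:41832855-41833154 (plus strand) for SREBF2.
DHCR7: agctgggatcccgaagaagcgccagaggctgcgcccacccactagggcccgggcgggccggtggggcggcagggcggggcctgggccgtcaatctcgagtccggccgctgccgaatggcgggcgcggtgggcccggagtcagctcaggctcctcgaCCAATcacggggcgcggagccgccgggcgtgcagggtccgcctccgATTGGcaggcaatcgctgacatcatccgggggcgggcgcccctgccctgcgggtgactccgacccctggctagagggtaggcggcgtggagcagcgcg
FADS1: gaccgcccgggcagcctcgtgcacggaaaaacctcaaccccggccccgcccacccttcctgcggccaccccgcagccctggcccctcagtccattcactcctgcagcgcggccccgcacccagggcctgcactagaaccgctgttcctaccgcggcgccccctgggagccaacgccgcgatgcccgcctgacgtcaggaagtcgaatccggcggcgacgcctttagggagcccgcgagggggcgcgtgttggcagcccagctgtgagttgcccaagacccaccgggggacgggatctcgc
MSMO1: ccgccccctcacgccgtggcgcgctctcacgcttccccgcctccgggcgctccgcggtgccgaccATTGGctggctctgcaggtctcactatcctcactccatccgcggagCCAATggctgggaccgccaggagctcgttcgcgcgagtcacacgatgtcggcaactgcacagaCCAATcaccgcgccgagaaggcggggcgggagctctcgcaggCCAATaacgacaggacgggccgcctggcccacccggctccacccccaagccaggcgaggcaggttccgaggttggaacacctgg
SREBF2: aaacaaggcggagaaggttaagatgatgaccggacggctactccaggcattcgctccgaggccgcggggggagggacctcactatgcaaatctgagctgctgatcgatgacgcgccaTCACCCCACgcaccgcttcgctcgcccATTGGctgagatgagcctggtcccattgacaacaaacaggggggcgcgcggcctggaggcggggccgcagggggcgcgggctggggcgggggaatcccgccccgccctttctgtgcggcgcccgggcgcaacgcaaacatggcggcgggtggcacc
DHCR7 has 2 capitalised elements, 94 and 48 bases upstream of the start, MSMO1 has 4 and FADS1 has none, and in SREBF2 the sterol element lies 133 bases upstream with ATTGG at 106.

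The levels of the members spanned a wide range and differed most by cell line. By the median of the libraries EBP was the most abundant member in RT-112 (134 CPM), FADS2 in HT-1376 (266 CPM) and SCD in CAL-29 (680 CPM). SCD, the stearoyl-CoA desaturase that makes oleate, had 10.79 to 44.16 CPM (median 18.7) in RT-112 and 66.65 to 434.97 CPM (median 241) in HT-1376. In CAL-29 it had 679.86 CPM in KK, 835.39 in KA, 148.89 in WK, 650.65 in WA and 732.39 in WC. The least abundant were HSD17B7, a sterol ketoreductase, in HT-1376 (median 2.70 CPM), ELOVL6 in CAL-29 (median 5.08 CPM) and STARD4, a carrier of cholesterol between membranes, in RT-112, with 0.05 to 0.27 CPM in RT-112, that is 1 to 5 reads per library. By the median of the libraries, RT-112 was the lowest line for 22 of the 33 members, CAL-29 for 6 and HT-1376 for 5, while 19 were highest in CAL-29, 11 in HT-1376 and 3 in RT-112. For 13 of 33 members, every RT-112 library lay below every library of the other lines, CAL-29 KC left out; this held for 19.1% of all genes tested.

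**Figure D1:**
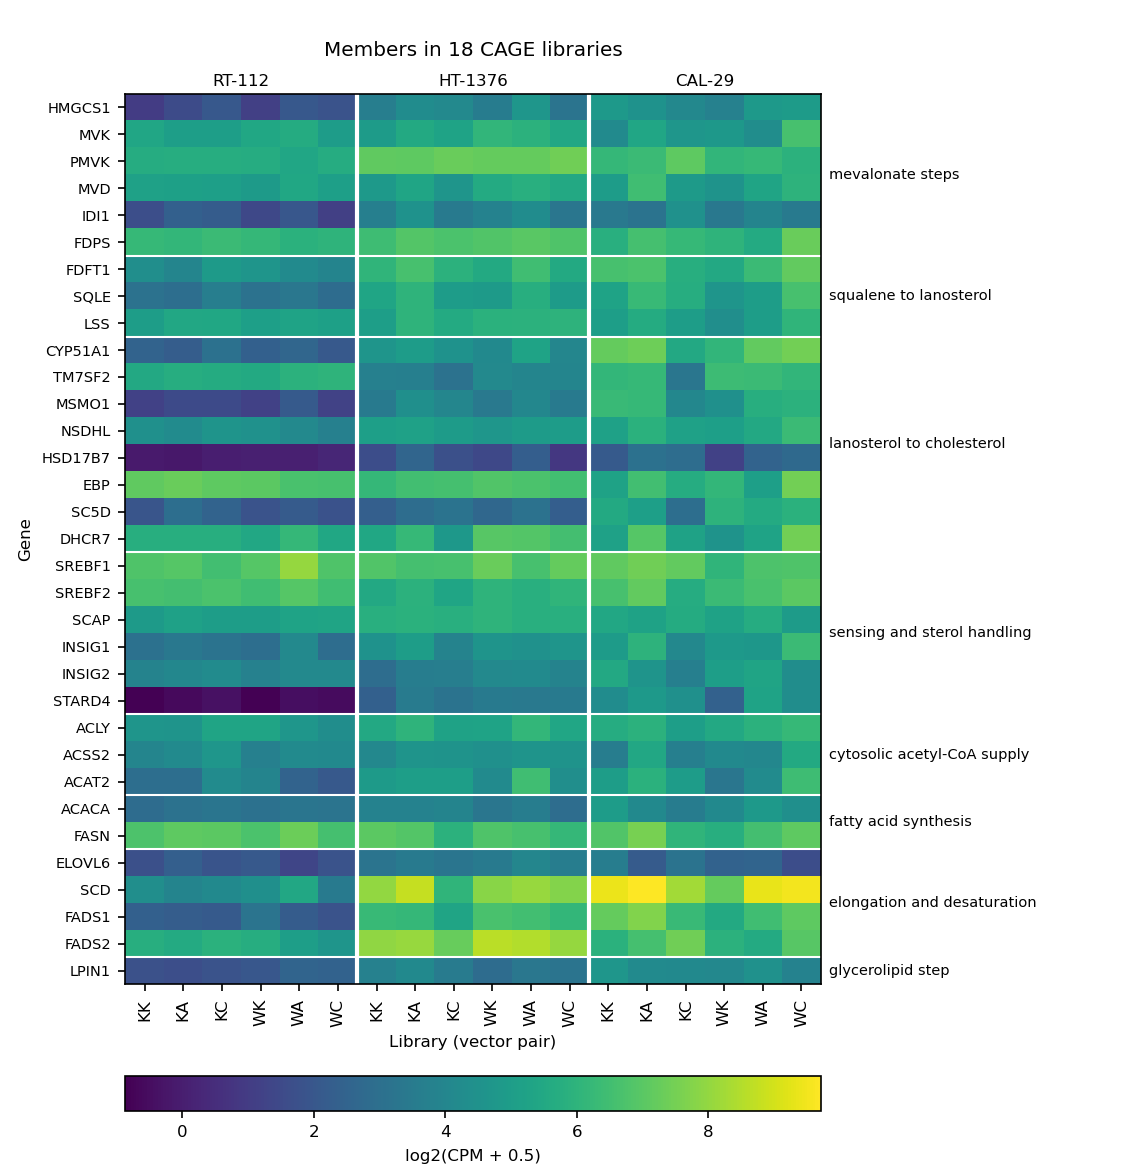
Levels of the 33 members as log2(CPM + 0.5), shown by color, in 18 CAGE libraries (columns, 6 variants in each of 3 cell lines), with genes in rows grouped by role. RT-112 is dark for STARD4, HSD17B7, MSMO1, HMGCS1 and IDI1, and within CAL-29 the column KC looks like HT-1376 for TM7SF2, SC5D and MSMO1. For STARD4, EBP and LSS that column lies within the range of the other CAL-29 libraries and outside that of HT-1376.

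A first comparison asked how the members differ between the lines, with 6 libraries each of RT-112 and HT-1376 and 5 of CAL-29. In HT-1376 both FADS desaturases, SCD and several sterol enzymes were above RT-112, whereas 5 of the sterol enzymes did not pass and TM7SF2 was below: 23 of the 33 members passed an adjusted p of 0.05, 21 higher and 2 lower, with a median log2 fold change (log2FC) of 0.79 over all 33. Of all 13022 genes 62.2% passed (42.6% higher, 19.6% lower) with a median of 0.43, so the share of members called was near the background. The libraries of a line are transductants of 1 culture line, and p-values (limma on log2(CPM + 0.5), Benjamini-Hochberg over all genes) measure the spread between them. RT-112 was grown in RPMI and the others in DMEM, so line and medium cannot be told apart.

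Among the mevalonate enzymes, 4 of 6 were higher in HT-1376. HMGCS1, which makes HMG-CoA, had 1.5 to 3.63 CPM (median 2.75) in RT-112 and 8.77 to 25.11 CPM (median 14.4) in HT-1376, and the libraries did not overlap (log2FC 2.32, SE 0.24, adjusted p = 7.83e-07 by limma). IDI1, the isopentenyl diphosphate isomerase, was higher by a log2FC of 2.04 (SE 0.22) and PMVK, the phosphomevalonate kinase, by 1.58 (SE 0.11). FDPS, the farnesyl diphosphate synthase, was higher by only 0.64 (SE 0.22), and MVK and MVD did not pass. All 3 enzymes from squalene to lanosterol were higher, namely SQLE (2.14, SE 0.29), the squalene epoxidase, FDFT1 (1.70, SE 0.26), the squalene synthase, and LSS (0.50, SE 0.20), the lanosterol synthase.

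The steps from lanosterol to cholesterol went both ways. CYP51A1, the lanosterol 14α-demethylase, had 3.8 to 8.07 CPM (median 4.92) in RT-112 and 15.23 to 37.83 CPM (median 23.6) in HT-1376 (log2FC 2.10, SE 0.24). MSMO1, the C4-methyl sterol oxidase, was higher by 2.33 (SE 0.24), HSD17B7 by 1.73 (SE 0.29) and NSDHL by 0.70 (SE 0.21). TM7SF2, a sterol C14-reductase, went the other way, with 45.15 to 64.68 CPM in RT-112 against 8.15 to 17.03 CPM in HT-1376 (log2FC −1.96, SE 0.14, limma adjusted p = 1.2e-08). EBP, SC5D and DHCR7 did not pass.

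Of the genes that sense or carry sterol, STARD4, INSIG1 and SCAP were higher in HT-1376 and SREBF2 was lower. STARD4 held 17 reads in all 6 RT-112 libraries together and 919 in those of HT-1376, a ratio of 59.9 after division by library size (95% counting interval 37.2 to 103); its log2FC of 3.85 understates this because of the pseudocount. INSIG1, which retains SCAP, had a log2FC of 1.26 (SE 0.28) and SCAP, the escort of the SREBPs, 0.73 (SE 0.14). SREBF2, the SREBP of sterol synthesis, had 87.29 to 120.4 CPM in RT-112 and 40.84 to 65.68 CPM in HT-1376 (log2FC −0.84, SE 0.16), so its transcript was lower in the line in which HMGCS1, SQLE and CYP51A1 were higher. SREBF1, the SREBP of fatty acid synthesis, did not pass (log2FC −0.13, SE 0.26).

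All 4 genes of elongation and desaturation were higher in HT-1376. FADS1, the Δ5-desaturase of polyunsaturated fatty acids, had 3.13 to 8.66 CPM (median 4.22) in RT-112 and 39.42 to 100.76 CPM (median 73.9) in HT-1376 (log2FC 3.83, SE 0.32, limma adjusted p = 5.85e-08). SCD was higher by 3.45 (SE 0.42), FADS2, the Δ6-desaturase, by 2.61 (SE 0.29) and ELOVL6, an elongase of palmitate, by 1.62 (SE 0.28). Neither of the enzymes that build the chain passed, ACACA, the acetyl-CoA carboxylase (log2FC 0.43), or FASN, the fatty acid synthase (log2FC −0.34, SE 0.23), although FASN stood at 96.03 CPM or more in every RT-112 library. ACAT2 (1.90, SE 0.50) and ACLY (0.79, SE 0.21), which handle cytosolic acetyl-CoA, and LPIN1, a phosphatidate phosphatase (1.43, SE 0.24), were higher.

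In CAL-29 too most called members stood above RT-112, led by STARD4 (log2FC 4.86, SE 0.33), SCD, CYP51A1, FADS1 and MSMO1. Here 22 of 33 members passed, 21 higher and 1 lower, with a median of 1.03, against 72.4% of all genes (56.5% higher, 15.9% lower) with a median of 0.82. CYP51A1 had 147.71 CPM in CAL-29 KK, 165.66 in KA, 67.85 in WK, 141.76 in WA and 174.54 in WC, all above the highest RT-112 library (log2FC 4.59, SE 0.25, limma adjusted p = 6.16e-10). MSMO1 had 78.82, 74.2, 21.38, 53.18 and 59.77 CPM in the same order, against 1.74 to 3.91 CPM in RT-112 (log2FC 4.31, SE 0.25). SC5D, the lathosterol oxidase, was higher by 3.43 (SE 0.26), HMGCS1 by 3.02 (SE 0.26), SQLE by 2.43 (SE 0.30), HSD17B7 by 2.32 (SE 0.30) and FDFT1 by 2.18 (SE 0.28). SCD (4.66, SE 0.44) and FADS1 (4.41, SE 0.34) led the desaturases, LPIN1 was higher by 2.20 (SE 0.26), and STARD4 held 1969 reads against 17 (a ratio of 140 after division by library size, 95% counting interval 87.3 to 241). The member that was lower was EBP, the sterol isomerase, with 97.36 to 155.84 CPM in RT-112 and 34.31 to 175.38 CPM in CAL-29 (log2FC −0.85, SE 0.32), and these ranges overlap. The values of INSIG1 (2.09, SE 0.30) also passed, whereas SREBF1 (−0.20), SREBF2 (0.15) and FASN (−0.16) did not.

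Between CAL-29 and HT-1376, 17 of 33 members passed, 13 higher in CAL-29 and 4 lower, with a median of 0.29; of all genes 60.8% passed (42.5% higher, 18.3% lower) with a median of 0.44. The largest differences were late sterol steps. SC5D had 33.51 to 61.93 CPM in CAL-29 and 4.44 to 8.37 CPM in HT-1376 (log2FC 2.88, SE 0.26), followed by CYP51A1 (2.50, SE 0.25), TM7SF2 (2.43, SE 0.15) and MSMO1 (1.98, SE 0.25). SCD (1.20, SE 0.44), INSIG2 (1.19, SE 0.25), STARD4 (1.01, SE 0.33), SREBF2 (0.98, SE 0.17), ACACA (0.96, SE 0.22) and INSIG1 (0.83, SE 0.30) were higher as well. HMGCS1 was higher by 0.70 (SE 0.26), NSDHL and LPIN1 by 0.67 and 0.77. The 4 lower members were FADS2, with 47.67 to 123.99 CPM in CAL-29 against 150.04 to 385.72 CPM in HT-1376 (log2FC −1.90, SE 0.31), PMVK (−1.06, SE 0.12), ELOVL6 (−1.03, SE 0.30) and SCAP (−0.57, SE 0.14). FADS1 and FADS2, neighbours in 1 desaturation route, thus had different orders of the lines: FADS1 did not pass between CAL-29 and HT-1376, while FADS2 was highest in HT-1376. SQLE, SREBF1 and FASN did not pass.

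The scale of the libraries and the GC content of transcripts moved with these contrasts. With trimmed mean of M-values (TMM) scaling the median of all genes was 0.05, 0.12 and 0.10 in place of 0.43, 0.82 and 0.44, and the called members split into 17 higher and 4 lower, 15 and 7, and 7 and 7. Across all genes cut into 5 equal bins of GC content, those in the lowest bin had a median log2FC of 0.74 in HT-1376 and 1.53 in CAL-29 against RT-112, and those in the highest bin −0.23 and −0.17. Members lay in every bin (5, 6, 7, 5 and 10 from the lowest), and in the lowest bin their own medians were 2.32 and 3.41. After a correction of each library for GC content, 18 members were higher and 3 lower in HT-1376 than in RT-112, 16 and 3 in CAL-29 than in RT-112, and 6 and 5 in CAL-29 than in HT-1376. STARD4, FADS1, SCD, MSMO1, HMGCS1, SQLE and CYP51A1 passed in every alternative against RT-112 in both lines, whereas between CAL-29 and HT-1376 INSIG1, SCD, HMGCS1 and STARD4 lost their call in 9, 7, 7 and 6 of 15 alternatives, and INSIG2 and ELOVL6 in 1 each.

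**Figure D2:**
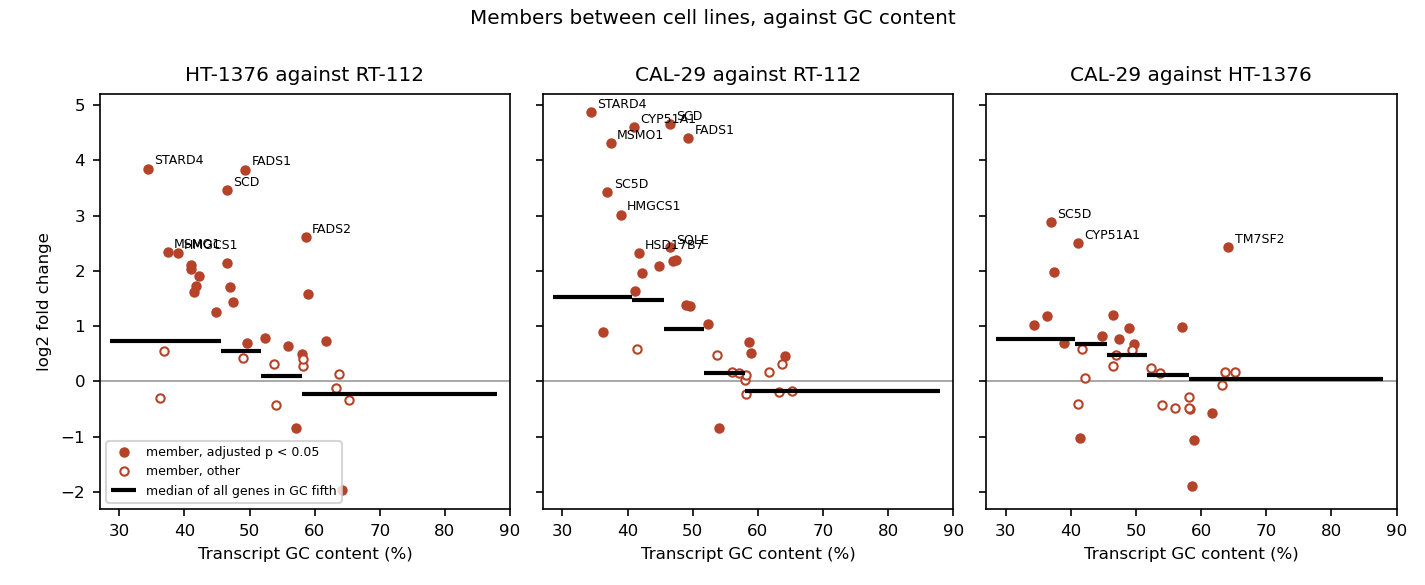
Each point is a member, placed by the GC content of its transcript (x axis, percent) and its log2FC between a pair of cell lines (y axis), filled where adjusted p is under 0.05; black lines are medians of all genes in 5 equal bins of GC content. Both rows of black lines against RT-112 fall from left to right, and FADS1, SCD, STARD4 and MSMO1 lie well above them.

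The second comparison set each variant against KK over the lines, the question being what WWOX, AP-2α, AP-2γ and their combinations do to expression. No member passed in any of the 5 contrasts, where 0 of 13022 genes (0%) passed in limma, and 0 members had an unadjusted p under 0.05. Over all genes such a p was reached by 0.292% for WK/KK, 0.645% for WC/KK, 0.0538% for KA/KK, 0.284% for WA/KK and 0.0845% for KC/KK. Calls by edgeR on the recovered reads were also 0, while DESeq2 called 2 to 9 genes per contrast, with no member among them. The members' median log2FC was 0.30 in KA/KK with 30 of 33 members above 0 (all genes −0.04, 44.3% above 0) and 0.24 in WA/KK with 25 above 0 (all genes 0.01, 52.1%). In WK/KK, KC/KK and WC/KK, 14, 15 and 21 members were above 0, with medians of −0.04, −0.08 and 0.03. Of all genes 41.9%, 40.1% and 31.1% were above 0, with medians of −0.08, −0.09 and −0.25. KC/KK includes the library labelled CAL-29 KC, and with CAL-29 left out 21 members were above 0 in it, with a median of 0.11. The contrasts share the KK libraries and are no independent evidence of each other.

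Because the lines differ far more than the variants, the members were also set against KK of the same line, library against library and with no test. In RT-112 the mean log2 change over the 33 members was 0.08 in WK, 0.10 in KA and 0.25 in WA, against 0.27 in KC and −0.12 in WC. In HT-1376 it was 0.43 in KA and 0.49 in WA, and −0.08, 0.20 and 0.05 in KC, WK and WC. In CAL-29 it was 0.38 in KA, −0.58 in WK, −0.06 in WA and 0.47 in WC, and −0.42 in the library labelled KC. The mean over all genes was −0.35, −0.16, 0.05, −0.53 and −0.44 in these CAL-29 libraries, 0.21 in HT-1376 KA, 0.06 in HT-1376 WA and 0.17 in RT-112 KC, so the members' mean in the library labelled CAL-29 KC was that of all genes. KA was the variant with a mean above 0 in 3 of 3 lines (0.31 ± 0.18, SD over lines, n = 3). In RT-112 KA, however, the members were near all genes, whose mean was 0.04. There 17 of 33 members were above KK, as were 51.1% of all genes. WK had a mean of −0.10 ± 0.42 (SD, n = 3). For KC the mean was −0.08 ± 0.35 (SD, n = 3) with the library labelled CAL-29 KC and 0.09 ± 0.25 (SD, n = 2) without it, so its sign turned on that library. Members more than 1.5-fold above KK numbered 12 in HT-1376 KA (15.6% of all genes were), 14 in HT-1376 WA (17.4%), 13 in CAL-29 KA (9.04%) and 13 in CAL-29 WC (12.3%). In CAL-29 WK 17 of 33 members were more than 1.5-fold below KK, as were 29.5% of all genes.

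**Figure D3:**
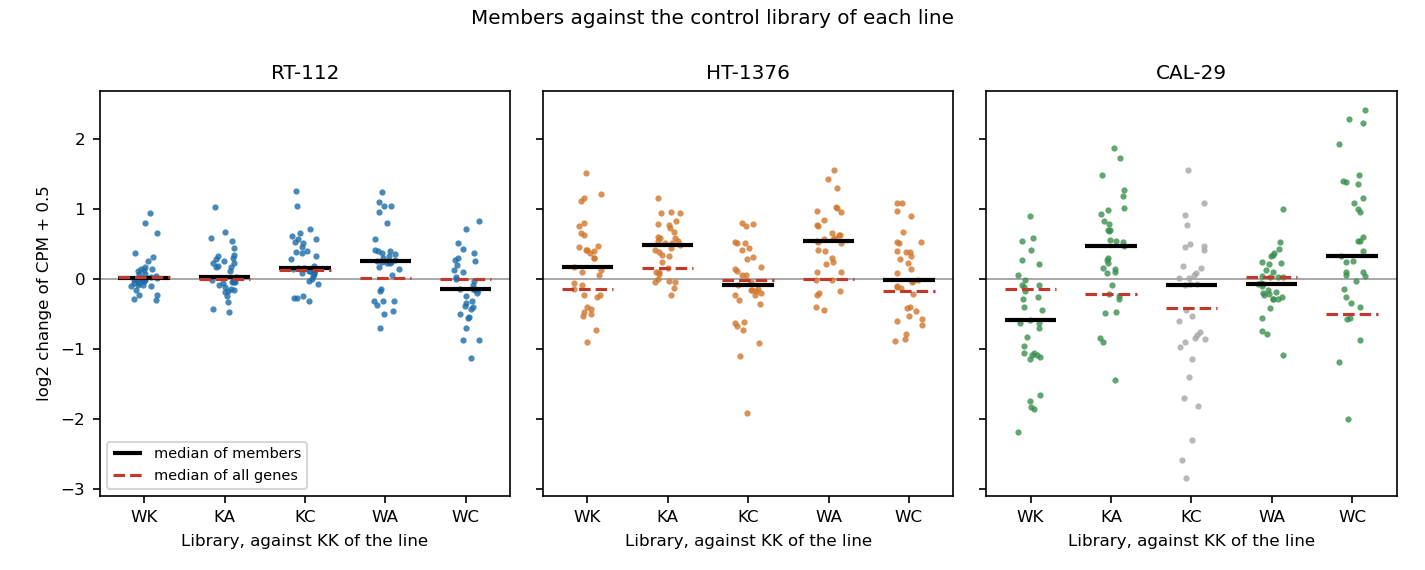
Log2 change of CPM + 0.5 for the 33 members (points) in each library against KK of the same line, with the median of the members (black) and of all genes tested (red, dashed); the library labelled CAL-29 KC is grey. CAL-29 WK lies low, with a median of −0.59, and the points of CAL-29 WC spread widely (SD over members 1.02, against 0.28 to 0.49 in the RT-112 libraries).

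In CAL-29, KA and WC had the higher values of several, but not all, mevalonate and late sterol enzymes. DHCR7, the last reductase of cholesterol synthesis, had 35.71 CPM in KK, 120.21 in KA, 23.54 in WK, 38.18 in WA and 176.84 in WC. MVK, the mevalonate kinase, had 17.77, 41.03, 26.85, 19.58 and 97.73 CPM in the same order, SQLE 37.95, 75.86, 24.48, 31.64 and 98.46, and ACSS2, the acetyl-CoA synthetase, 11.66, 44.07, 17.18, 15.87 and 46.05. EBP and INSIG1 also had their highest values in WC, 175.38 and 80.69 CPM. Of the 33 members 24 were above KK in KA and 9 below, among the latter HMGCS1 (22.73 against 27.92 CPM), IDI1 and SC5D (33.51 against 46.47 CPM). In WC 23 were above and 10 below, among the latter PMVK (60.56 against 72.09 CPM), TM7SF2 and MSMO1 (59.77 against 78.82 CPM). Of all genes 36.7% were above KK in KA and 29.3% in WC. Genes of low GC content were lower in these libraries: the lowest GC bin of all genes had a median of −1.11 in KA and −1.19 in WC against KK and the highest bin 0.09 and −0.21. The same held in CAL-29 WK (−0.64 and 0.07) and in the library labelled CAL-29 KC (−0.92 and −0.16). Relative to the median of their own GC bin, 29 of 33 members were above in KA and 27 in WC, and the part of GC content in each value was not tested.

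Over all lines, the fit with terms for WWOX, AP-2α, AP-2γ and the line (17 libraries) called no member and 0 of 13022 genes (0%) for any of the 3 terms in limma. With edgeR 16, 1 and 2 genes passed for WWOX, AP-2α and AP-2γ and with DESeq2 225, 1 and 12, none of them a member. For AP-2α, 31 of 33 members were above 0 with a median log2FC of 0.25, against 58.6% of all genes and a median of 0.04. An unadjusted p under 0.05 was reached by 8 members for AP-2α (1.53% of all genes), namely STARD4 (0.85, SE 0.31), MSMO1 (0.68, SE 0.24), HSD17B7 (0.67, SE 0.29), HMGCS1 (0.66, SE 0.24), MVD (0.58, SE 0.25), ACSS2 (0.53, SE 0.24), IDI1 (0.48, SE 0.22) and LSS (0.47, SE 0.20). The adjusted p of each was 1 in limma. In RT-112 STARD4 had 0.05 to 0.27 CPM and HSD17B7 0.37 to 0.72 CPM, at or near the pseudocount of 0.5 CPM. Without the libraries labelled RT-112 WA and HT-1376 WA, 31 of 33 members were still above 0, but the median was 0.18 and 1 member had an unadjusted p under 0.05. SQLE (0.48, SE 0.29), INSIG1 (0.46, SE 0.28), SCD (0.68, SE 0.42), FASN (0.35, SE 0.23), SREBF2 (0.25, SE 0.16) and SREBF1 (0.21, SE 0.26) were above 0 within 2 SE. The values above 0 under AP-2α held with TMM scaling and with the GC correction (29 of 33 members in both, medians 0.21 and 0.22). In pairs of libraries that by their labels differ in AP-2α alone, 17 members were higher in RT-112 KA than in KK and 23 in WA than in WK, 28 and 21 in HT-1376, and 24 and 25 in CAL-29; the shares of all genes were 51.1% and 48.6%, 67.8% and 60.1%, and 36.7% and 62.3%. The WA/WK pairs of RT-112 and HT-1376 hold the WA libraries whose AP-2 genes did not match the label in full.

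For AP-2γ 22 of 33 members were above 0 (median 0.22, all genes −0.09, 33.3% above 0), and 2 had an unadjusted p under 0.05 (2.63% of all genes), ACSS2 (0.77, SE 0.26) and LSS (0.52, SE 0.22). In WC against WK, 26 of 33 members were higher in CAL-29 (median 1.31) and 12 each in RT-112 and HT-1376 (medians −0.06 and −0.08). The shares of all genes were 27.7%, 44.5% and 50.4% (medians −0.36, −0.03 and 0.004). In KC against KK, 26 were higher in RT-112 (median 0.16) and 15 in HT-1376 (median −0.09). Of all genes 65.9% and 47.4% were (medians 0.13 and −0.01), so the members' medians in these 2 pairs were near those of all genes. Without CAL-29 the median for AP-2γ was −0.04, with 14 members above 0. With the library labelled CAL-29 KC in the fit the median for AP-2γ was 0.06. For WWOX 12 of 33 members were above 0 (38.7% of all genes), and 1 had an unadjusted p under 0.05 (12.3% of all genes). The members' median was −0.03 (all genes −0.08) and became 0.04 with TMM scaling, so no direction can be given.

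WWOX had different signs in the lines, and this was followed within each of them over the pairs that share a second vector. In HT-1376 1 member passed with WWOX, DHCR7, which was higher; 1269 of all genes (9.75%) passed. DHCR7 had 42.95 CPM in KK, 74.05 in KA and 26.87 in KC, against 123.7 in WK, 116.44 in WA and 91.82 in WC. Every WWOX library was thus above every control library (log2FC 1.31, SE 0.28, limma adjusted p = 0.0235). MVD, the mevalonate diphosphate decarboxylase, had 28.02, 40.12 and 24.32 CPM without WWOX and 47.77, 54.83 and 44.81 CPM with it, also without overlap (log2FC 0.69, SE 0.20, adjusted p = 0.0649 in limma). FADS1 (0.51, SE 0.23), INSIG2 (0.67, SE 0.27) and FADS2 (0.62, SE 0.26) were higher in 3 of 3 pairs and did not pass. SCD had 252.62, 434.97 and 66.65 CPM without WWOX and 229.33, 270.0 and 216.94 CPM with it, so it was higher only in WC against KC. An unadjusted p under 0.05 was reached by 6 of 33 members (27.9% of all genes). The members' median was 0.12 (20 of 33 above 0) and that of all genes −0.13 (40.3% above 0). WWOX itself was not higher in the WWOX libraries of HT-1376 in 2 of 3 pairs, so the direction is that of the label. DHCR7 no longer passed without the WA libraries of RT-112 and HT-1376 (log2FC 1.63, limma adjusted p = 0.081), nor with all 18 libraries, nor without the control or the AP-2γ second transductions.

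In CAL-29, by contrast, 28 of 33 members lay below 0 with WWOX (median −0.45), while 59.6% of all genes lay above 0 (median 0.10). An unadjusted p under 0.05 was reached by 10 of 33 (12.8% of all genes), but none passed the adjustment, where 95 of all genes (0.73%) did. With the library labelled KC left out this value rests on the pairs WK and KK, and WA and KA. FADS1 had 147.82 CPM in KK and 205.92 in KA against 46.35 in WK and 87.76 in WA (log2FC −1.44, SE 0.29, limma adjusted p = 0.0654). FASN had 113.57 and 184.52 CPM without WWOX and 54.42 and 93.6 with it (−1.01, SE 0.22, adjusted p = 0.0916 in limma). SREBF1 had 141.26 and 170.91 CPM against 66.13 and 106.42 (−0.89, SE 0.27), and MSMO1 78.82 and 74.2 against 21.38 and 53.18 (−1.17, SE 0.37). DHCR7 had 35.71 and 120.21 CPM against 23.54 and 38.18 (−1.12, SE 0.34), the opposite side of its value in HT-1376. Most of these values were lowest in WK: 18 of 33 members had their lowest CAL-29 value there, a share not counted over all genes. Below KK in that library were 26 of 33 members and 57.2% of all genes. SCD had 679.86 CPM in KK against 148.89 in WK, but 835.39 in KA against 650.65 in WA. In WC, the third WWOX library of CAL-29, SCD, FADS1 and FASN had 732.39, 133.49 and 135.74 CPM, and DHCR7 176.84 CPM against 35.71 in KK. There 23 of 33 members were above KK, as were 29.3% of all genes. The values below 0 were thus not shared by this library, whose AP-2γ control is the library left out.

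In RT-112, no member and none of 13022 genes (0%) passed in limma, 1021 genes had an unadjusted p under 0.05 (7.84%), and DESeq2 called 57 genes with no member among them. DHCR7 had 54.24, 53.19 and 54.19 CPM without WWOX and 44.33, 72.72 and 42.56 CPM with it, and FADS1 4.76, 4.26 and 3.85 against 8.66, 4.19 and 3.13. The members' median was −0.06 with 12 of 33 above 0, against −0.03 and 45.3% for all genes. WWOX itself was lower in every WWOX library of RT-112 than in its control (0.713 to 0.858 times). The direction is therefore that of the label, here as in the WWOX term over all lines and in the interaction.

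The difference of the WWOX effect between lines was tested as an interaction, which 377 of all genes (2.9%) and 2 members passed, DHCR7 (limma adjusted p = 0.0445) and FADS1 (limma adjusted p = 0.0463). Both were above 0 in HT-1376 and below 0 in CAL-29, the sterol gene and the desaturase alike, and their log2FC in RT-112 were −0.06 (SE 0.28) and 0.17 (SE 0.23). Neither passed when all 18 libraries were fitted, where the library labelled CAL-29 KC enters as a control, nor when any second transduction was left out, nor without the WA libraries of RT-112 and HT-1376 (limma adjusted p = 0.214 for DHCR7 and 0.286 for FADS1). With the GC correction DHCR7, FADS1, MSMO1 and MVD passed, and with DESeq2 6 members did, DHCR7, FADS1, FADS2, FASN, MVD and SREBF1.

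**Figure D4:**
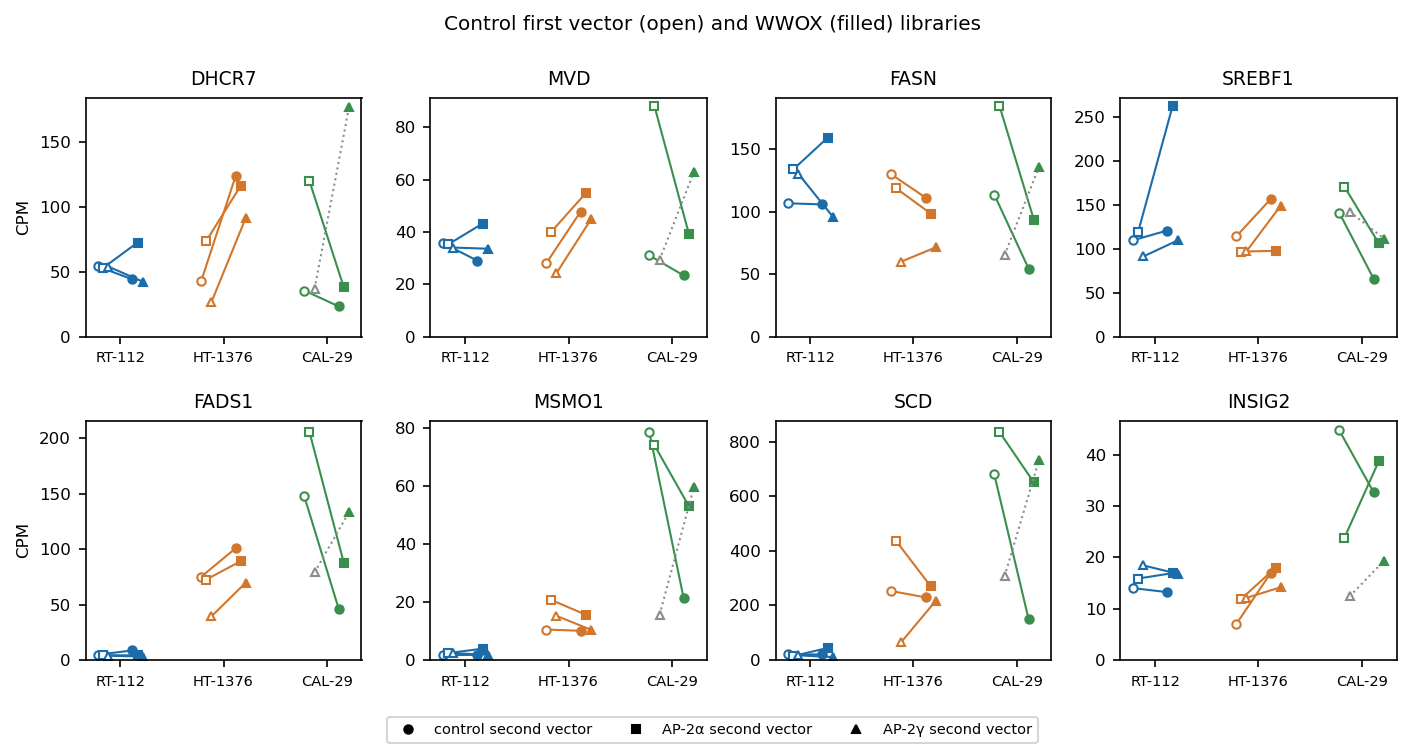
CPM of 8 members without WWOX (open) and with WWOX (filled), lines joining libraries of the same cell line and second vector; the shape gives the second vector and the grey dotted pair holds the library labelled CAL-29 KC. DHCR7 and MVD go up in all 3 HT-1376 pairs, and FADS1, FASN and MSMO1 go down in both solid CAL-29 pairs.

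Genes around the pathway were counted from lists by role. Under WWOX in HT-1376, 2 of 5 LXR receptors and targets passed, 1 in each direction, where 9.75% of all genes did. ABCA1, which exports cholesterol, had 20.72, 15.94 and 13.12 CPM without WWOX and 1.89, 1.28 and 3.29 with it (log2FC −2.73, SE 0.59), and ABCG1, a related exporter, had 2.7, 3.92 and 13.69 CPM against 21.56, 15.72 and 41.8 (2.08, SE 0.43). Of 8 measured genes of sterol transport and esterification 2 passed, TMEM97 (−1.93, SE 0.29), a sterol-responsive membrane protein, and GRAMD1A (0.88, SE 0.22), a sterol carrier. Of 19 other fatty acid and lipid enzymes 1 passed, ACSL4 (−1.74, SE 0.44), an acyl-CoA synthetase for arachidonate. Neither the 9 SREBP proteases and degradation proteins nor the 11 genes of other isoprenoid branches held a call. In the interaction 1 gene of these lists passed, TMEM97, and in CAL-29 and RT-112 none did. Between lines, 13 of 19 lipid enzymes were higher and 3 lower in HT-1376 than in RT-112, and 12 and 4 in CAL-29, next to the 42.6% and 19.6% and the 56.5% and 15.9% of all genes given above; ELOVL5, an elongase of polyunsaturated chains, was higher by 2.46 and 3.47 and ACSL1 by 2.50 and 3.14. ABCA1 had no read in any RT-112 library.

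The library labelled CAL-29 KC was within the range of the HT-1376 libraries for 21 of 33 members and within that of the other CAL-29 libraries for 21 as well. For TM7SF2, SC5D and FADS2 it was within the HT-1376 range and outside that of the other CAL-29 libraries. TM7SF2 had 9.24 CPM (67.93 to 84.03 in the other CAL-29 libraries, 8.15 to 17.03 in HT-1376), SC5D 7.27 and FADS2 171.4. The same held for IDI1, MSMO1, SREBF2, INSIG1, INSIG2 and ACACA. The library was within the other CAL-29 range and outside that of HT-1376 for as many members. These were MVK, FDPS, LSS, HSD17B7, EBP, SCAP, STARD4, ACSS2 and ELOVL6. CYP51A1, with 45.01 CPM, lay between the ranges. So did PMVK, with 136.16 CPM, just under the lowest HT-1376 library (136.63) and above the highest other CAL-29 library (79.51). ACLY, with 33.27 CPM, lay below both ranges. Within a line, the ratio of the highest to the lowest library had a median over the members of 1.96 (RT-112), 2.16 (HT-1376) and 3.11 (CAL-29 without that library), against 1.74, 2.15 and 2.41 over all genes tested.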

How the data were processed

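CAGE-seq libraries of 18 transductants were analysed. The authors sequenced reads of 75 nt, mapped them to hg38 with BWA and HISAT2 2.0.5, grouped tags by RECLU (Paraclu), and the deposited table gives CPM to 2 decimals for each gene in each library; the annotation behind the genes is not given in the sources used here. The files of single samples repeat the columns of the table and were not used.

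Whole reads were recovered from the CPM: in each library 99.967% to 99.994% of values, allowing for their rounding, came out as an integer number of reads. The 13022 genes that reached 5 CPM in 1 or more libraries were tested with limma 3.58.1 in R 4.3.3 on log2(CPM + 0.5) with a trended variance, Benjamini-Hochberg adjustment over all of them and a threshold of 0.05. Variants were compared with KK without a block (the study names limma and does not state a term for the line); WWOX, AP-2 and the cell lines were compared with terms for the line in 17 libraries, without the library labelled CAL-29 KC. On the log2 scale a pseudocount understates changes of low genes. The lines pair the libraries by design: as deviations from the variant means, libraries of the same line correlated across genes with 0.588 to 0.915, and the library labelled CAL-29 KC with its line with 0.036 to 0.174. Fits were tested on simulated data. Transcript GC content (GENCODE 44) was known for 13007 genes tested, and each library was corrected with a lowess curve of span 0.2 in an added alternative.

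The members and lists were chosen with earlier results of these data known. All 33 members may be named; those given in full are the called ones, up to 10 per direction, and HMGCS1, SQLE, INSIG1, SREBF1, SREBF2, FASN and SCD in each comparison with a test of the factor or the line, and up to 3 called genes per direction from other lists. The settings varied were the pseudocount (0.05 and 2 CPM), no filter, 5 CPM in 3 libraries and TMM scaling. Others were limma-voom, edgeR 4.0.16 and DESeq2 1.42.0 on the recovered reads, the line as a block, and all 18 libraries. In further settings lines, variants or the WA libraries of RT-112 and HT-1376 were left out. Promoters are from RefSeq. Plots were drawn with matplotlib 3.10.9 in Python 3.11.15.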

Additional observations from a re-analysis of the deposited data

Results flagged for a closer look

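In 99 groups, 1 member in the libraries of 1 cell line each, a single library stood apart from the rest 8 times, where chance gives about 1 in 20 groups. In RT-112 the library WA was low for PMVK (41.36 CPM, next 50.4) and high for MSMO1 (3.91 CPM, next 2.37) and SREBF1 (262.6 CPM, next 121). In HT-1376 KK was low for STARD4 (4.67 CPM, next 8.44) and ACSS2 (16.11 CPM, next 21.1), and KC was low for SCD (66.65 CPM, next 217). In CAL-29 the library WK was low for CYP51A1 (67.85 CPM, next 142) and SCD (148.89 CPM, next 651). HT-1376 KK is the control library of its line, so its low STARD4 and ACSS2 enter every change given against it.

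The effect of WWOX differed between cell lines for DHCR7 (interaction in limma, adjusted p = 0.0445) and FADS1 (adjusted p = 0.0463 in limma). DHCR7 was higher in 3 of 3 HT-1376 pairs and lower in both CAL-29 pairs that were fitted, and so was FADS1. The call was lost in 7 of 13 alternatives for DHCR7 and in 6 of 13 for FADS1. Leaving out any second transduction was among them.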

How the results depend on the processing

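No member was called against KK, or for WWOX, AP-2α or AP-2γ over the lines, under any alternative, and each line left out gave 0. The cell line pairs the libraries, and with it as a replicate block 0 members passed in each of the 5 contrasts with KK, alone, with edgeR, without the library labelled CAL-29 KC or with the GC correction; edgeR with the block called 5 genes in KC/KK, none of them a member. In the single cell lines the calls moved. For WWOX in HT-1376 there was 1 member called and 4 with DESeq2 or the GC correction, 0 with all 18 libraries or without the libraries labelled RT-112 WA and HT-1376 WA, and 0 to 1 with a second transduction left out. For WWOX in CAL-29 there was none, but 1 with a pseudocount of 2 CPM or TMM scaling, 3 with DESeq2 and 2 with the GC correction. For the interaction, 2 members passed, 0 with a pseudocount of 0.05 CPM, 1 with edgeR, 6 with DESeq2, 0 with all 18 libraries or without both WA libraries, 4 with the GC correction, and 0 to 0 with a second transduction left out. Over all genes, WWOX in HT-1376 had 1269 calls and 141 with all 18 libraries, and the interaction 377 and 7. Members called between lines stayed at 20 to 23 for HT-1376 and CAL-29 against RT-112 when a variant was left out (22 to 23 and 20 to 23), and CAL-29 against HT-1376 gave 12 to 17, with 12 without KK and 11 with the GC correction. The mean change of the members against KK became 0.72 with TMM scaling and 0.67 with the GC correction in CAL-29 KA, 1.00 and 0.98 in CAL-29 WC, and −0.036 and −0.056 in the library labelled CAL-29 KC. The cause of these shifts was not tested.

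Values near 0 changed sign. DHCR7 for WWOX in RT-112 was 0.012 with TMM scaling, 0.0037 with edgeR, 0.022 with DESeq2, and −0.32 to 0.080 with a second transduction left out; in CAL-29 it was 0.0019 with all 18 libraries. FADS1 in RT-112 was −0.14 to 0.39 with a second transduction left out. SREBF1 against RT-112 was 0.15 with the GC correction in HT-1376 (−0.24 to 0.13 with a variant left out) and 0.035 in CAL-29 (−0.37 to 0.048), and 0.022 with all 18 libraries in CAL-29 against HT-1376 (−0.28 to 0.18). SREBF2 in CAL-29 against RT-112 was −0.62 with TMM scaling and DESeq2, −0.54 with edgeR and −0.032 with all 18 libraries. FASN in CAL-29 was 0.10 against RT-112 with the GC correction (−0.39 to 0.020 with a variant left out), and −0.18 with TMM scaling, −0.10 with edgeR and −0.15 with DESeq2 against HT-1376 (−0.064 to 0.44). Against HT-1376, HMGCS1 was −0.047 with the GC correction, and SQLE −0.068 with TMM scaling and −0.26 with the GC correction (−0.11 to 0.52 with a variant left out).

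Each variant had 1 library per line, so no spread within a line and variant can be given, and the fits without a block carry the large spread between lines. Genes with few reads, such as STARD4 in RT-112 (1 to 5 reads per library), are limited by depth.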

Other observations

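The library RT-112 WA had the highest values of its line for several members of fatty acid and sterol control: SREBF1 262.6 CPM (91.55 to 121.05 in the other libraries), SCD 44.16 CPM (10.79 to 20.53), FASN 158.91 CPM (96.03 to 133.59) and INSIG1 16.71 CPM (7.11 to 9.84). DHCR7 (72.72 CPM) and MVD (43.26 CPM) were also highest there, while PMVK, FDPS and ELOVL6 were lowest (41.36, 58.86 and 2.07 CPM). In all, 10 members had their highest RT-112 value in this library and 3 their lowest. TFAP2A had 25.32 CPM in this library (20.31 in WK), in the direction of its label. TFAP2C, which the label does not name, had 179.87 CPM (56.2 in WK). This is 1 library, and the difference was not tested.

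ACAT2, the cytosolic acetoacetyl-CoA thiolase, varied within each line as few other members did. It had 88.45 CPM in HT-1376 WA and 17.78 to 33.19 CPM in the other HT-1376 libraries, 3.8 to 18.44 CPM in RT-112, and in CAL-29 32.34 CPM in KK, 58.22 in KA, 9.34 in WK, 18.54 in WA and 86.31 in WC. Its log2FC for WWOX in CAL-29 was −1.68 with an SE of 0.68.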
